A study of Mus musculus with 14 samples.

Results

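The genes of the proteasome were followed through both RNA-seq experiments of the series. They were the rows of the count tables whose symbol begins with Psm, then a letter from a to g and a number. Of 42396 rows, 61 matched. Of these, 10 repeated another symbol with a numeric suffix. They were read as further copies of the gene, which the labels do not state, and were set aside, which left 51. Psmb11, the thymus form of a catalytic subunit, stayed at or below 1 CPM (a count scaled to the size of its library) in every library, and the other 50 genes were kept. They comprised 14 subunits of the constitutive 20S core, 17 of the 19S regulatory particle, 5 of the immunoproteasome and 14 others, namely assembly factors, activators, an inhibitor, a tissue-restricted core subunit and 3 genes whose symbol goes on after the number. The rule used symbols and a minimum level, not a difference between groups.

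All hearts came from female FS6KD mice, which carry a gene trap in Ndufs6, a subunit of respiratory complex I, on a mixed C57BL/6J and 129/Ola background, and which develop mitochondrial cardiomyopathy. In the knockout experiment, 4 hearts of Atf3+/+FS6KD were compared with 4 of Atf3-/-FS6KD at 12 weeks. The knockout was made with Cas9 and a pair of guides that remove sequence between exons 2 and 4 of Atf3, a stress-induced transcription factor, and the founders were intercrossed. In the other experiment, FS6KD mice received MyoAAV2, a muscle-directed adeno-associated virus, as neonates, with 3 hearts labelled MyoAAV2-shCtrl (control hairpin) and 3 labelled MyoAAV2-shAtf3 (hairpin against Atf3), collected 12 weeks after injection. Each library is 1 heart, so cell types are mixed, and fewer cells of a type cannot be told apart from less RNA per cell. The series asked what Atf3 loss does to cardiac function and metabolism, and the proteasome comparison was chosen here.

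The proteasome degrades proteins tagged with ubiquitin. Its barrel, the 20S core, stacks rings of alpha and beta subunits, and the beta subunits Psmb5, Psmb6 and Psmb7 cut the chain. The 19S regulatory particle caps the barrel, binds the tagged protein, removes the ubiquitin and unfolds the chain with a ring of ATPases. Interferon induces Psmb8, Psmb9 and Psmb10, which take the places of Psmb5, Psmb6 and Psmb7 in the immunoproteasome, and Psme1 and Psme2, which form the PA28 activator. In heart muscle the proteasome clears damaged contractile proteins, and leukocytes carry much immunoproteasome.

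The promoters of the members hold the letters of several stress and interferon motifs, and a few are shown for genes whose values are given below. RefSeq promoter windows of 300 bases, from 250 before the transcription start to 50 after it (GRCm38.p6), were found for 42 of the 50 members, in 46 windows. The antioxidant response element TGACNNNGC, bound by the factors Nfe2l1 and Nfe2l2, was searched on both strands and stood in the windows of Psmb5, Psmb6, Psmc6, Psmd9, Psmd12 and Psme4, which is 13% of the member windows and 12.4% of all 32851. The windows of Psmb6, Psmc6 and Psme4 lie at chr11:70525107-70525406, chr14:45329574-45329873 and chr11:30771525-30771824, all on the plus strand, and that of Psmb5 at chr14:54617946-54618245 on the minus strand. The element is in capitals in all 4, as its reverse complement in Psmc6 and Psme4, and in Psmb5 the AP-1 letters TGANTCA are in capitals too.
Psmb5: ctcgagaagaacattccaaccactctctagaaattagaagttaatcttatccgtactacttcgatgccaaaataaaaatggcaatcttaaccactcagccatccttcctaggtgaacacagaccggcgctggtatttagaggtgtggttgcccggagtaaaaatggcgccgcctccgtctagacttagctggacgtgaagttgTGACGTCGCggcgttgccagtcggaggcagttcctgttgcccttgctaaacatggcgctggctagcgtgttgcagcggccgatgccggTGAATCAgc
Psmb6: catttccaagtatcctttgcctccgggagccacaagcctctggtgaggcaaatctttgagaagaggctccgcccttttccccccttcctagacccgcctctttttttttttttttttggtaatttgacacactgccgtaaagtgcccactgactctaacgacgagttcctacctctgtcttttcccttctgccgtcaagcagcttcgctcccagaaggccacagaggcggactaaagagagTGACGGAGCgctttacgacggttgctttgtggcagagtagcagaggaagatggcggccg
Psmc6: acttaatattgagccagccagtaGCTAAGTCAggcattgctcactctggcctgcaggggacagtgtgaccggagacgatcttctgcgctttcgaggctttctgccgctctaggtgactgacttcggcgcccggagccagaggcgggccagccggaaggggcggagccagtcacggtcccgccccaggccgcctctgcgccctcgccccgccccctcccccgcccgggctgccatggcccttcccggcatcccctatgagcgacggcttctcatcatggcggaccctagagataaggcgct
Psme4: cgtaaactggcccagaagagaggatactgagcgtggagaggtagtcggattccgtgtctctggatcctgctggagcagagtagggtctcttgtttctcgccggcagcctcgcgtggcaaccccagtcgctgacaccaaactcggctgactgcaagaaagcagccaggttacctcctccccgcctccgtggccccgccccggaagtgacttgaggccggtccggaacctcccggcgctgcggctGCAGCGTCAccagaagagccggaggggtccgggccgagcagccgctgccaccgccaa
The AP-1 letters stood in 2 members (Psmb5 and Psmd9), in 4.35% of member windows and 7.81% of all windows, and in the windows shown no match of 1 motif overlapped one of another. The CRE letters TGACGTCA, a site of the family Atf3 belongs to, stood in 0 member windows and in 1.79% of all windows. The CCAAT box was found in 32.6% of member windows and 37.4% of all.

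The interferon motifs were searched likewise. The interferon-stimulated response element, searched as the letters GAAA, any 2 bases and GAAA, stood in 10.9% of member windows against 3.44% of all windows. The 5 members were Psmb3, Psmd4, Psmd9, Psme1 and Psmg4. The GAS letters TTCNNNGAA stood in 6.52% of member windows (Psmb8, Psmd2, Psmg1) and in 8.30% of all. Shown are the window of Psmb8 with its GAS letters in capitals (chr17:34197945-34198244, plus strand) and that of Psme1 with the reverse complement of its interferon-stimulated response element in capitals (chr14:55578244-55578543, plus strand).
Psmb8: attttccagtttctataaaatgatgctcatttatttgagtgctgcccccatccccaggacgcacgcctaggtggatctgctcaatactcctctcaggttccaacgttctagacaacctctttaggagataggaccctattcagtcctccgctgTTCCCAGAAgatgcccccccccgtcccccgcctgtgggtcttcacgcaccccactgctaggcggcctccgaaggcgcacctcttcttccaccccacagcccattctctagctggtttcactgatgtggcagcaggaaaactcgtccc
Psme1: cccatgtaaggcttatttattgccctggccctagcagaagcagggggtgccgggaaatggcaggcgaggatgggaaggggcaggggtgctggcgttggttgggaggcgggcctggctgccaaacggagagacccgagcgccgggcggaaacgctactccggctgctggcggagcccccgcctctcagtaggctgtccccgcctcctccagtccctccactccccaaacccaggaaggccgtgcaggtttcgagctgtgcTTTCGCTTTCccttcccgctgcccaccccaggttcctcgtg
Of the 5 immunoproteasome genes, Psme1 alone held the interferon-stimulated response element in its window and Psmb8 alone the GAS letters. These matches are descriptions of the reference sequence and say nothing of binding in these hearts.

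Total counts ran from 33914931 to 134920825 in the knockout experiment, where replicates 3 and 4 of each genotype were the deeper ones, and from 30085432 to 40534913 in the AAV experiment. Atf3 itself was not lower in either Atf3 group. It stood at 6.36 to 25.8 CPM in Atf3+/+FS6KD and at 14.3 to 37.6 CPM in Atf3-/-FS6KD (adjusted p 0.480 in edgeR). The counts are per gene and do not separate the deleted exons from the others, so they do not check the deletion. It stood at 10.1 to 14.1 CPM in the libraries labelled shCtrl and 12.1 to 21.2 CPM in those labelled shAtf3 (adjusted p 0.420 in edgeR), and the column names of that experiment's table were opposite to the sample labels. Labels were followed, so each direction below holds as far as the labels do. Cardiomyocyte markers, 8 genes, summed to 55359 to 82851 CPM per library.

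By the median of each class, levels per kb were higher in the core than in the regulatory particle, with single genes of both interleaved. Levels between genes are given as CPM per kb of exon, with the rows of copies added to their gene. In Atf3+/+FS6KD the catalytic core subunit Psmb7 was highest at 175 ± 4.01 CPM per kb (SD, n = 4), followed by Psmb6 at 164 ± 14.1, which do not differ beyond their spread. The median of the 7 beta subunits was 107 CPM per kb and that of the 7 alpha subunits 96.7. The lowest beta and alpha subunits, Psmb1 at 42.1 and Psma3 at 36.0, have exon unions longer than their median transcript. With the median transcript length in place of the union (an alternative added after seeing the data) they stood at 82.2 and 55.4. Psma2, at 36.5, has the same length by both measures and stayed there. Among the 6 ATPases of the regulatory particle the median was 70.4, from Psmc6 at 54.7 to Psmc3 at 110. Among its 11 non-ATPase subunits it was 52.1, from the deubiquitinase Psmd14 at 35.4 to the scaffold Psmd2 at 96.0.

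The assembly chaperones among the members stood lower than the subunits of the core and the regulatory particle. The core assembly chaperones Psmg1 to Psmg4 had levels of 8.30 (Psmg3) to 21.0 (Psmg2) CPM per kb, and the regulatory particle chaperones Psmd5, Psmd9 and Psmd10 levels of 5.50 to 8.04. Within the immunoproteasome, Psme1 stood at 102, Psme2 at 53.5 and Psmb10 at 49.2 CPM per kb, while Psmb8 stood at 10.5 and Psmb9 at 7.03. Of the remaining activators, Psme4 (PA200, which opens the core without ATP) stood at 68.2 and Psme3 (PA28 gamma) at 31.5, and the inhibitor Psmf1 at 6.30. Psma8, the testis form of an alpha subunit, was the lowest member at 0.61 CPM per kb. It passed the 1 CPM minimum in both experiments, with 0.57 to 1.57 CPM in the knockout libraries. The genes whose symbol goes on after the number were Psmc3ip (a meiotic recombination factor) at 2.06, Psme2b (a copy of Psme2) at 2.75 and Psme3ip1 (which binds Psme3) at 9.05.

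**Figure D1:**
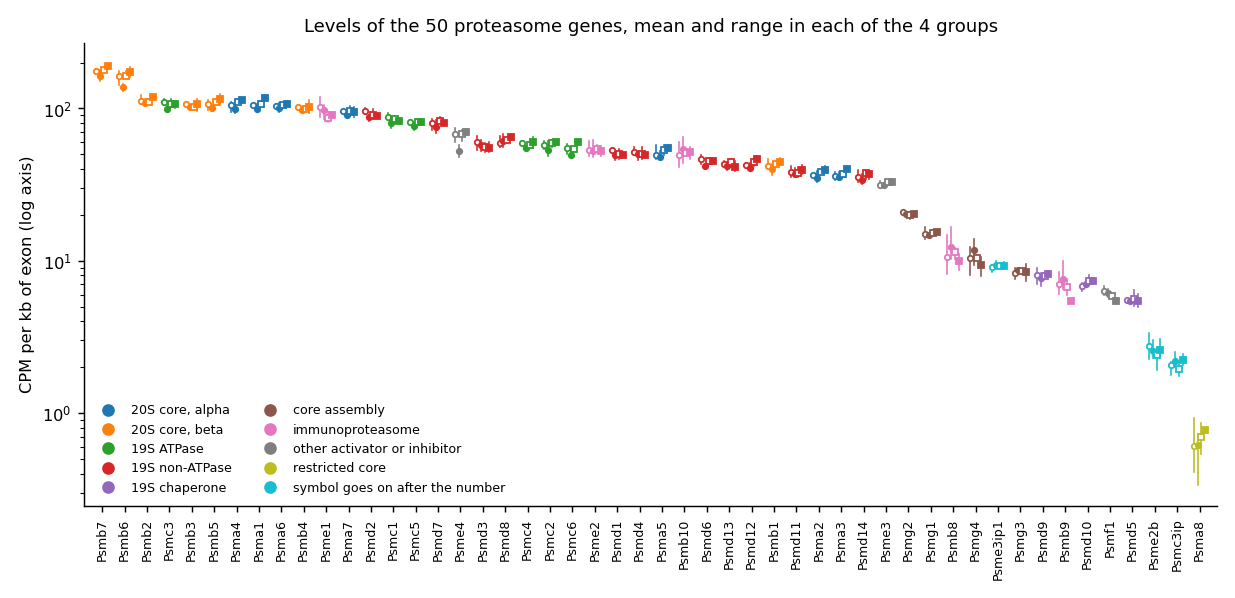
Level of each of the 50 proteasome genes in CPM per kb of exon (log axis), ordered by its mean in Atf3+/+FS6KD. Points are group means and lines run from the lowest to the highest library, with circles for the knockout experiment (open Atf3+/+FS6KD, filled Atf3-/-FS6KD) and squares for the AAV experiment (open labelled shCtrl, filled labelled shAtf3); the assembly factors, Psmb8 and Psmb9 lie well under the core and regulatory particle subunits.

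The spread between hearts of 1 group was small for most members. The within-group SD of log2 CPM had a median of 0.08 over the members in the knockout experiment and 0.08 in the AAV experiment. Over all genes at or above a mean of 5 log2 CPM these medians were 0.11 and 0.08. Immunoproteasome genes varied more in the knockout experiment, with a median SD of 0.21 and 0.32 for Psmb8, against 0.08 for the core and 0.08 for the regulatory particle. In the AAV experiment the 5 immunoproteasome genes had a median SD of 0.10.

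For Psmb8, Psmb9 and a few other members the count of the gene row is uncertain, because counts were split among rows of the same symbol. Psmb6, Psmd10 and Psmg1 each had 1 further row, and both rows held the same count in all 14 libraries for Psmd10 and Psmg1 and in 9 of 14 for Psmb6, whose gene row held at most 50.02% of the sum. The level of such a gene row is low by that share, and its fold change is not affected. Psmb8 had 4 rows, and its gene row held 30.4% to 36.0% of their sum. Psmb9 also had 4, and its gene row held 31.2% to 42.9%. Psme2b had a second row and held 56.9% to 65.3%. The lowest share of Psmb8 and of Psmb9 came from 1 library, Atf3+/+FS6KD replicate 2, in which the rows Psmb8_2 and Psmb9_2 took 19.6% and 23.6%, against at most 16.5% and 15.1% in the other 13 libraries. Values below are those of the gene row unless the copies are said to be added.

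**Figure D2:**
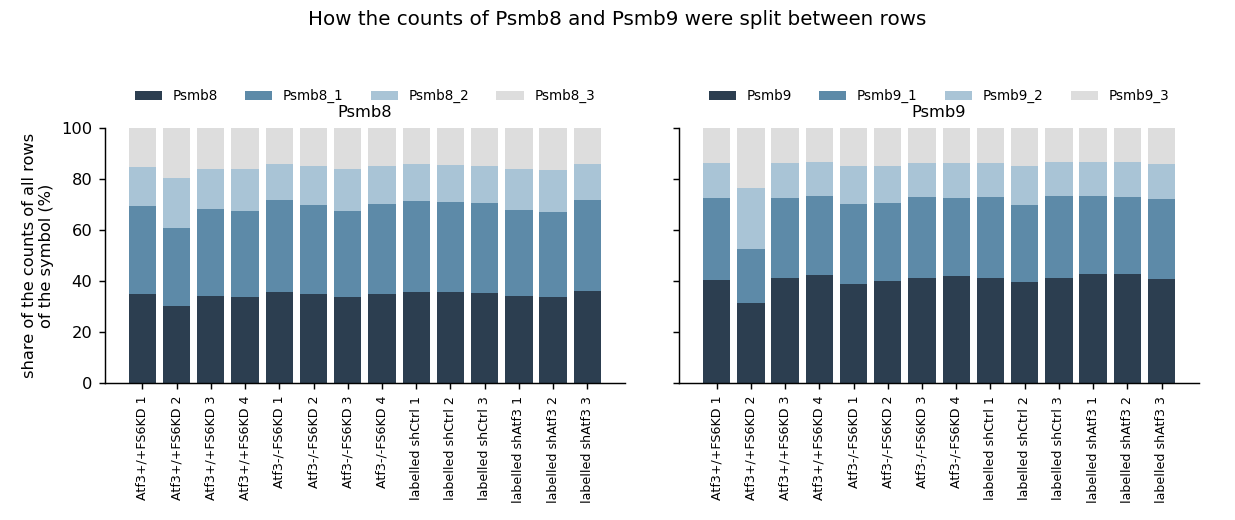
Share (%) of the counts of all 4 rows of Psmb8 (left) and of Psmb9 (right) that each row held, 1 bar per library. Atf3+/+FS6KD replicate 2 is the library in which the gene rows held least, 30.4% for Psmb8 and 31.2% for Psmb9.

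Between Atf3+/+FS6KD and Atf3-/-FS6KD no member was called. By edgeR with Benjamini-Hochberg adjustment over 15592 genes, 0 of 50 members passed 0.05, as did 0% of all genes tested, and DESeq2 called 1 member, Psme4 (2% of the members, against 1.34% of all genes). At an unadjusted p below 0.05, 4 members were lower (8% of the members, against 4.69% of all genes) and 0 were higher (5.41% of all genes). The 4 became 9 when Atf3-/-FS6KD replicate 2 was left out (18% of the members, 3.97% of all genes). They became 2 (4% of the members) when the knockout heart of replicate 1 was (4.68% of all genes) or the control heart of replicate 2 was (3.57% of all genes). The members leaned to lower levels, by small amounts. They were measured in the same hearts, so counts of members, here and below, are not counts of independent observations. Of the 50, 40 had a log2 fold change below 0, against 49.8% of all genes, and their median was -0.06, against 0.00 for all genes. In 6 members the groups did not overlap and Atf3-/-FS6KD was lower (12% of members, against 2.63% of all genes), and in 0 members it was higher without overlap (3.08% of all genes). Split by replicate number, 37 of 50 were lower within replicates 1 and 2 and 42 of 50 within the deeper replicates 3 and 4. Both subsets are parts of the same comparison and do not repeat it. The first rests mainly on knockout replicate 1. With copies added, its core summed to 1488 CPM, against 1648 in knockout replicate 2 and 1589 and 1652 in control replicates 1 and 2. The regulatory particle summed to 1979 and 2118 CPM in these knockout hearts, against 2155 and 2130 in the controls. With library size alone all values moved up together, the median of all genes to 0.06 and that of the members to 0.00. Then 23 of 50 members were below 0 and 1, Psme4, was lower without overlap (2% of the members, 0.943% of all genes), while 40 of 50 were below the median of all genes, the number given with TMM, the main scaling, which sets library sizes so that most genes balance.

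The 20S core was lower in Atf3-/-FS6KD in all 14 subunits, with a median log2 fold change of -0.07 and 0 members called. Values ran from -0.24 for Psmb6 to -0.02 for Psma3. With library size alone 8 of the 14 were below 0 and 14 were below the median of all genes. Psmb6, the caspase-like catalytic subunit, had 57.5, 69.9, 67.3 and 67.6 CPM in Atf3+/+FS6KD and 52.2, 58.4, 54.3 and 57.3 CPM in Atf3-/-FS6KD. All controls but replicate 1 lay above every knockout heart. Its log2 fold change was -0.24 (SE 0.07, 95% interval -0.40 to -0.08, adjusted p 0.383 in edgeR), and it lay between -0.30 and -0.18 over 21 settings. The chymotrypsin-like subunit Psmb5 had 98.2, 88.6, 101.6 and 94.2 CPM in the controls and 86.7, 89.4, 94.5 and 90.1 CPM in the knockouts, and these groups overlapped (-0.09, SE 0.06, adjusted p 0.640 in edgeR). The trypsin-like subunit Psmb7 had 199.5, 201.8, 209.7 and 201.2 CPM in the controls. The knockout hearts had 182.9, 209.4, 176.5 and 185.3 CPM, of which replicate 2 alone reached the controls (-0.11, SE 0.06, adjusted p 0.597 in edgeR).

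The 19S regulatory particle showed the same lean, with 16 of 17 subunits lower and a median log2 fold change of -0.09. All 6 ATPases were lower (median -0.11), as were 10 of 11 non-ATPase subunits (median -0.06), and 0 were called. With library size alone 13 of the 17 were below 0 and 16 were below the median of all genes. Groups did not overlap, with the knockout lower, in 5 of the 17 subunits (2.63% of all genes), Psmc3, Psmc4, Psmd1, Psmd2 and Psmd6, and with library size alone in 0 of them. The ATPase Psmc3 had 221.3, 236.7, 227.6 and 212.8 CPM in Atf3+/+FS6KD. It had 195.0, 204.7, 197.4 and 211.8 CPM in Atf3-/-FS6KD, so that the highest knockout heart lay just below the lowest control (-0.15, SE 0.06, adjusted p 0.423 in edgeR). Psmd6, which joins the lid of the particle, had 63.3, 66.5, 68.9 and 60.0 CPM in the controls and 57.4, 58.2, 59.4 and 58.1 CPM in the knockouts (-0.15, SE 0.06, adjusted p 0.435 in edgeR). The scaffold subunits Psmd1 and Psmd2 had log2 fold changes of -0.11 (SE 0.05) and -0.12 (SE 0.05), and the ATPase Psmc4 one of -0.09 (SE 0.05). Psmd8 was the subunit with a value above 0, at 0.03.

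Assembly factors showed no common lean. Of the 4 core chaperones 2 were higher and 2 lower, from -0.05 for Psmg2 to 0.18 for Psmg4 (SE 0.15). The 3 chaperones of the regulatory particle ran from -0.06 for Psmd9 to 0.06 for Psmd10. Psma8, Psme2b, Psmc3ip and Psme3ip1 lay between -0.01 and 0.09, with SE of 0.06 to 0.33, and with its copy added Psme2b was at -0.08 (SE 0.17).

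Psme4 had the largest difference and the smallest p-value of all members in the knockout comparison. It encodes PA200, an activator that caps the core in place of the regulatory particle. Its level was 393.7, 470.5, 481.4 and 424.5 CPM in Atf3+/+FS6KD, and 375.1, 327.0, 311.8 and 357.7 CPM in Atf3-/-FS6KD. Every knockout heart lay below every control heart. The means were 442.5 ± 40.8 and 342.9 ± 28.7 CPM (SD, n = 4 each), and the log2 fold change was -0.37 (SE 0.08, 95% interval -0.56 to -0.18). The adjusted p was 0.277 in edgeR and 0.0105 in DESeq2. Over 21 settings the fold change stayed below 0, from -0.44 to -0.30, and the adjusted p ran from 0.0105 to 0.813. The other activator Psme3 (-0.01, SE 0.05) and the inhibitor Psmf1 (-0.03, SE 0.07) lay close to 0.

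Of the 5 immunoproteasome genes 3 were above 0 in the knockout comparison and 2 below. Psmb8, Psmb9 and Psmb10 had log2 fold changes of 0.31 (SE 0.20), 0.19 (SE 0.15) and 0.14 (SE 0.15), Psme1 and Psme2 ones of -0.06 (SE 0.10) and -0.01 (SE 0.10), and 0 of 5 were called in edgeR (smallest adjusted p 0.618). Leaving out 1 heart at a time, Psmb8 ran from 0.13 to 0.45, Psmb9 from 0.04 to 0.26 and Psmb10 from 0.04 to 0.24. All 3 lowest values were those without Atf3-/-FS6KD replicate 2, and the highest were those without replicates 2, 4 and 3 of Atf3+/+FS6KD in turn. Psmb8 had 5.26, 7.33, 5.49 and 4.48 CPM in the controls and 6.90, 9.56, 5.61 and 5.89 CPM in the knockouts. Psmb9 had 3.32, 3.57, 3.53 and 4.13 CPM in the controls and 3.76, 5.46, 3.81 and 3.71 CPM in the knockouts. Psmb10 had 56.4, 54.4, 78.5 and 68.8 CPM in the controls and 57.2, 84.8, 76.6 and 65.1 CPM in the knockouts. The knockout heart of replicate 2 was the highest of 8 for all 3 genes, and all groups overlapped. With the copies added the log2 fold changes of Psmb8 and Psmb9 were 0.22 (SE 0.21) and 0.12 (SE 0.16).

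The median of the 5 genes depended on which hearts were compared. It was 0.14 over all 8 hearts, 0.36 within replicates 1 and 2 and -0.03 within replicates 3 and 4. Atf3-/-FS6KD replicate 2 stood apart, with a mean over the 5 genes 0.40 (log2) above the control mean, where the other 3 knockout hearts lay between -0.01 and 0.04. The same heart had the highest mean over the 8 leukocyte markers tested, 3.62 log2 CPM, against 2.74 to 2.96 in the controls and 2.85 to 3.62 over the knockouts. All 8 of these markers had a log2 fold change above 0 in the knockout comparison. Of them 0 were called (0% of all genes) and 4 were at an unadjusted p below 0.05 (5.41% of all genes were higher at that p). They summed to 87.4 to 105 CPM in the controls and 102 to 144 CPM in the knockouts. The T cell marker Cd3e was low, at 0.35 ± 0.16 CPM in the controls (SD, n = 4), and Cd79a and Nkg7 did not pass the minimum in either experiment. Of the 15 genes of antigen processing and interferon response, 14 were above 0, 0 called and 1 at an unadjusted p below 0.05. H2-K1 was the 1 whose groups did not overlap (0.50, SE 0.17, adjusted p 0.398 in edgeR). Among all genes 3.08% were higher without overlap and 5.41% higher at that unadjusted p. The part of leukocytes in the immunoproteasome values was not tested. In replicate 2 of Atf3-/-FS6KD the core and regulatory particle genes lay at 0.02 and 0.00 from the control mean, nearer to the controls than in the other 3 knockout hearts. Without this heart 41 of 50 members were lower, 19 of them without overlap (38% of the members, 4.39% of all genes), and without Atf3+/+FS6KD replicate 2, the library with the unusual share of copy rows, 35 were.

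**Figure D3:**
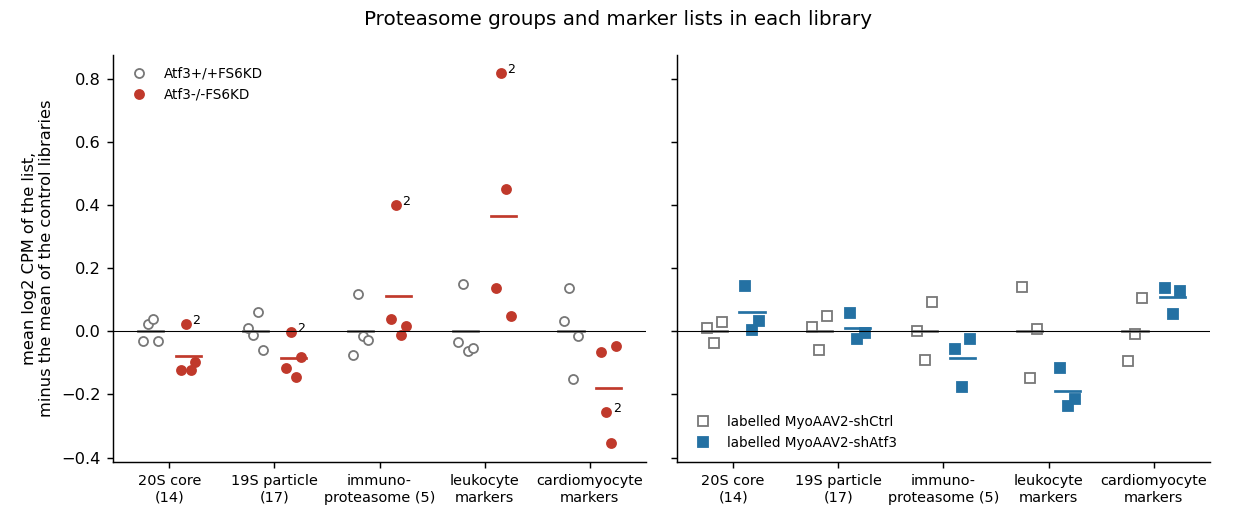
Mean log2 CPM over the 20S core, regulatory particle and immunoproteasome genes and over the leukocyte and cardiomyocyte markers in each library, minus the mean of the control libraries, for the knockout experiment (left) and the AAV experiment (right). Open symbols are control libraries, filled ones Atf3 libraries, bars group means and the digit 2 marks Atf3-/-FS6KD replicate 2, which lies 0.40 above the controls for the immunoproteasome and 0.02 above them for the core.

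The marker lists of other heart cell types each lay on 1 side of 0 in the knockout comparison. Among all genes there, 0% were called, and at an unadjusted p below 0.05, 5.41% were higher and 4.69% lower. The 8 cardiomyocyte markers were all below 0 in Atf3-/-FS6KD (median -0.16), 0 of them called and 2 at an unadjusted p below 0.05, with a summed level of 65236 to 82851 CPM in the controls and 55359 to 71436 CPM in the knockouts. The 6 fibroblast markers were all above 0 (median 0.34), 0 called and 4 at an unadjusted p below 0.05, with sums of 1399 to 1713 CPM and 1558 to 2201 CPM. The 5 endothelial markers were above 0 (median 0.10) and the 5 erythrocyte markers below 0 (median -0.20), with 0 of these called and 1, an endothelial marker, at an unadjusted p below 0.05. What share of the lean of the core and regulatory particle went with the cell makeup was not tested.

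No member was called between the libraries labelled shCtrl and shAtf3 either. Of 50 members, 0 had an adjusted p below 0.05 in edgeR, against 0.539% of 15225 genes, and DESeq2 called 0 as well, against 2.02% of all genes. At an unadjusted p below 0.05, 1 member was higher (2% of members, 5.05% of all genes) and 0 were lower (7.65% of all genes). Here 18 of 50 members had a log2 fold change below 0, against 50.9% of all genes, and the median was 0.02. Groups did not overlap in 4 members that were higher in the libraries labelled shAtf3 (8.48% of all genes), Psma3, Psmb2, Psmb7 and Psmc6, and in 1 that was lower (9.94% of all genes), Psmf1. Those shares, 8% and 2% of the members, are near or under those of all genes. With library size alone 29 of 50 were below 0 and the median was -0.02, where that of all genes was -0.04, and 18 of 50 were below the latter. At an unadjusted p below 0.05 there were then 0 members higher (2.5% of all genes) and 1 lower, Psmf1 (2% of the members, 10.9% of all genes).

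In the core, 13 of 14 subunits were above 0 under the label shAtf3, the median was 0.06 and values ran from -0.02 (Psma7) to 0.12 (Psma1). Psmb7 had 207.2, 201.5 and 210.8 CPM with the label shCtrl and 228.1, 217.3 and 214.5 CPM with the label shAtf3 (0.09, SE 0.06, adjusted p 0.541 in edgeR). Psmb2 had 98.8, 92.5 and 92.8 CPM and then 105.3, 104.3 and 99.0 CPM, the lowest of the second group just above the highest of the first (0.12, SE 0.06, adjusted p 0.443 in edgeR). Psmb5 and Psmb6 had log2 fold changes of 0.08 (SE 0.07) and 0.08 (SE 0.07) with overlapping groups. Leaving out 1 library at a time, the core median ran from 0.02 to 0.11, Psmb5 from 0.02 to 0.15 and Psmb6 from 0.02 to 0.14. The library labelled shAtf3 replicate 1 lay highest over the core, at 0.14 above the control mean, and without it 5 of 14 core subunits and 25 of 50 members were below 0.

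The regulatory particle did not lean, with 9 of 17 subunits above 0 and a median of 0.00. The ATPase Psmc6 had the smallest p-value of the members. It had 124.2, 122.0 and 119.3 CPM under shCtrl and 139.0, 133.3 and 129.2 CPM under shAtf3, with no overlap (0.14, SE 0.06, 95% interval 0.01 to 0.26, adjusted p 0.369 in edgeR). Psme4, the member with the lowest value in the knockout comparison, had 400.0, 466.6 and 455.1 CPM and then 452.5, 477.7 and 432.0 CPM, with overlapping groups (0.04, SE 0.07). Psmf1, the inhibitor PI31, had 23.1, 23.5 and 24.0 CPM and then 21.8, 21.2 and 22.4 CPM (-0.11, SE 0.06, adjusted p 0.517 in edgeR). Assembly chaperones lay between -0.14 (Psmg4) and 0.04 (Psmd9).

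Among the immunoproteasome genes, Psmb8 and Psmb9 were below 0 in the AAV comparison, and neither was called. Psmb8 had 6.83, 5.98 and 6.95 CPM with the label shCtrl and 5.57, 4.78 and 6.49 CPM with the label shAtf3 (-0.23, SE 0.13, and -0.19, SE 0.10, with the copies added). Psmb9 had 3.72, 3.16 and 4.18 CPM and then 3.08, 3.24 and 3.02 CPM (-0.24, SE 0.14). With the copies added Psmb9 had 9.02, 8.005 and 10.2 CPM and then 7.23, 7.56 and 7.41 CPM, no longer overlapping (-0.29, SE 0.11, adjusted p 0.304 in edgeR). Of all genes with copies added, 10.1% were lower without overlap. Leaving out 1 library at a time, the value of the Psmb8 gene row ran from -0.35 (without the library labelled shAtf3 replicate 3) to -0.12 (without shAtf3 replicate 2), and that of Psmb9 from -0.34 (without shCtrl replicate 2) to -0.14 (without shCtrl replicate 3). Psmb10 (0.01, SE 0.08), Psme1 (0.07, SE 0.07) and Psme2 (-0.05, SE 0.07) overlapped. In this experiment all 7 leukocyte markers tested were below 0 (0 called, 3 at an unadjusted p below 0.05), with sums of 115 to 134 CPM and 107 to 116 CPM, 14 of the 15 antigen processing and interferon genes were below 0 (0 called, 2 at an unadjusted p below 0.05), and the 6 fibroblast markers were below 0 (3 called), with sums of 1851 to 2451 CPM and 1413 to 1559 CPM. The 8 cardiomyocyte markers were above 0 (0 called, 0 at an unadjusted p below 0.05), at 58046 to 67710 CPM and 63785 to 68904 CPM. Of the endothelial markers 4 of 5 and of the erythrocyte markers 5 of 5 were above 0. Of all genes in this comparison 0.539% were called. At an unadjusted p below 0.05, 7.65% of all genes were lower and 5.05% higher. The part of these marker lists in the proteasome values was not tested.

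**Figure D4:**
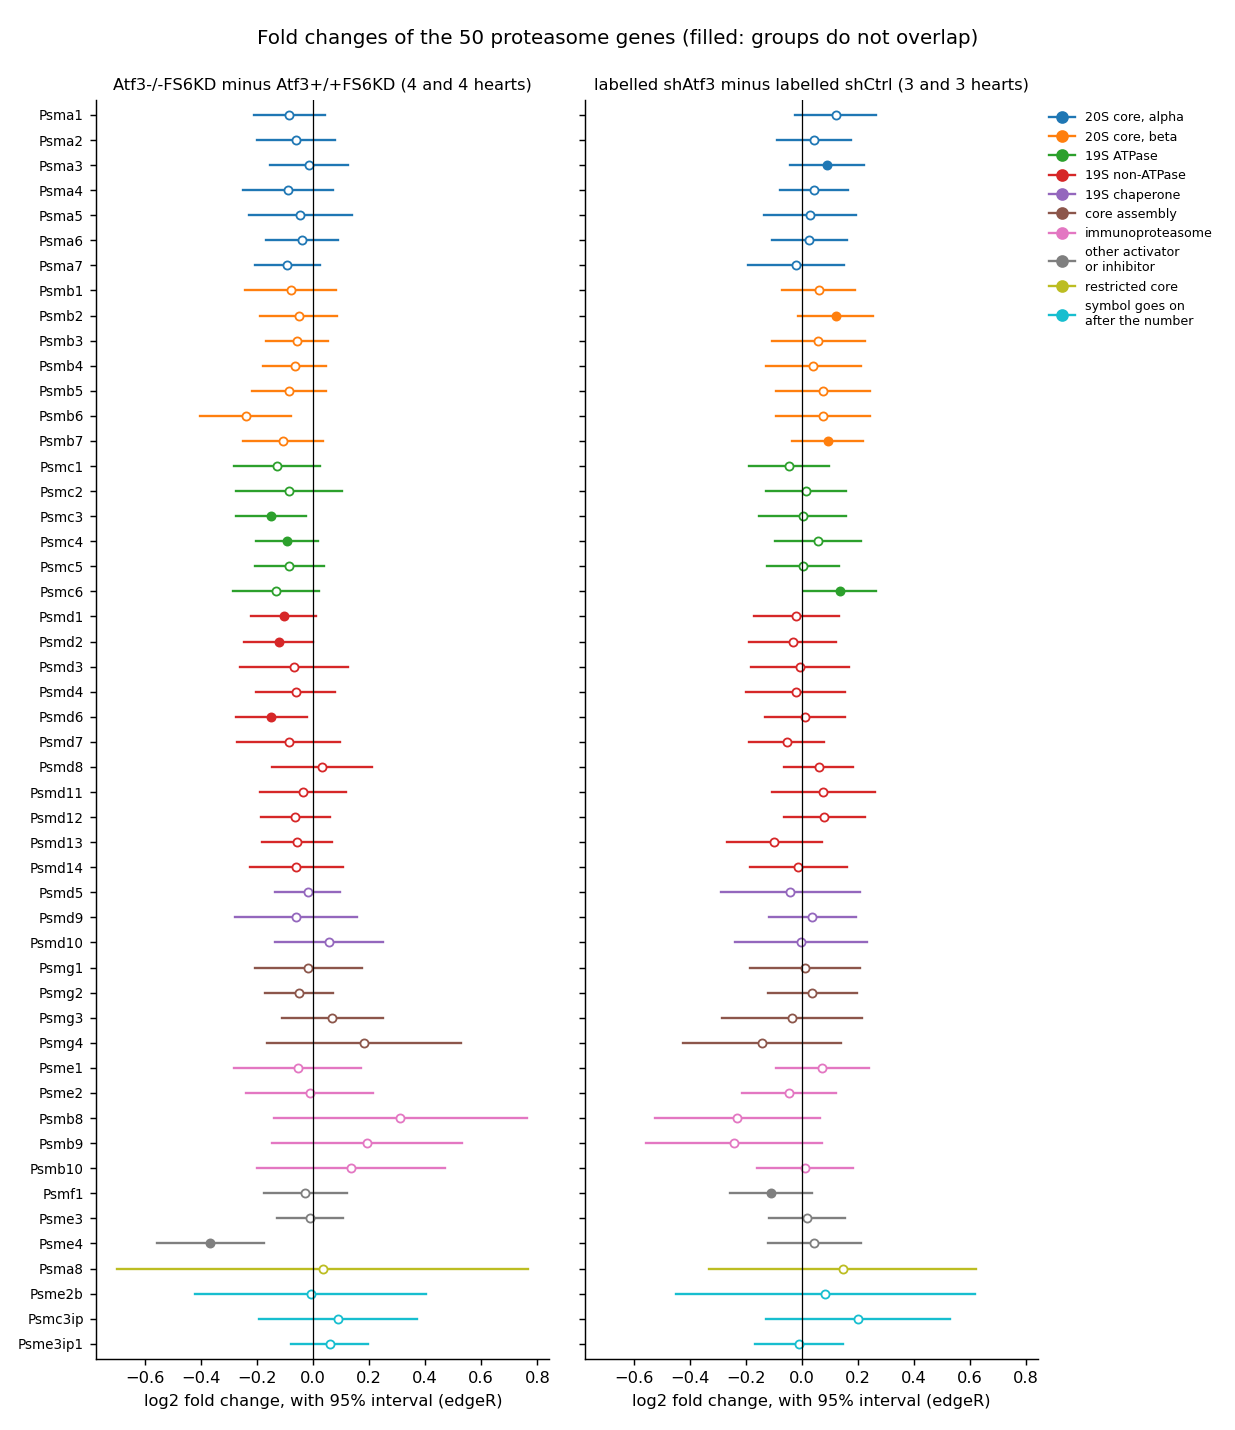
Log2 fold change of each of the 50 members with its 95% interval (edgeR), coloured by class, for Atf3-/-FS6KD minus Atf3+/+FS6KD (left, 4 and 4 hearts) and for the libraries labelled shAtf3 minus those labelled shCtrl (right, 3 and 3 hearts). Filled points are genes whose groups did not overlap. With the TMM scaling shown, all 14 core subunits lie left of 0 on the left, the activator gene Psme4 lies farthest left at -0.37, and 13 of 14 core subunits lie right of 0 on the right.

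With TMM scaling, the edgeR intervals bound the size of any difference. In the knockout comparison 45 of 50 members had a 95% interval wholly within 0.5 (log2) of 0, a 1.41-fold difference, and the exceptions were Psma8, Psmb8, Psmb9, Psmg4 and Psme4. In the AAV comparison 45 of 50 did, the exceptions being Psma8, Psmb8, Psmb9, Psmc3ip and Psme2b. All 50 intervals lay within 1 (log2) of 0 in both. The intervals are not adjusted for the number of genes and leave out the choice of scaling. Library size alone moved the median of all genes to 0.06 in the knockout and -0.04 in the AAV comparison.

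The difference between both effects was tested in 1 fit of all 14 libraries. In this interaction 0 of 50 members were called in edgeR, against 0.166% of 15708 genes (smallest adjusted p of a member 0.116), and DESeq2 called 1, Psme4 (2% of the members, against 4.27% of all genes). At an unadjusted p below 0.05 the knockout effect lay below the labelled knockdown effect in 5 members (10% of the members, 7.53% of all genes) and above it in 0 (9.43% of all genes). With library size alone it lay below in 1 member, Psme4 (2% of the members, 2.66% of all genes), and above in 2, Psmb8 and Psmb9 (4% of the members, 16.4% of all genes). The 5 members were Psme4 (difference -0.41, SE 0.12), Psmc6 (-0.27, SE 0.09), Psmb6 (-0.32, SE 0.11), Psma1 (-0.21, SE 0.08) and Psmb7 (-0.20, SE 0.08). All 14 core subunits had a difference below 0, as did 16 of 17 in the regulatory particle, and with library size alone, which put the median of all genes at 0.11, 11 of 14 and 6 of 17 were below 0 and 14 of 14 and 16 of 17 below that median. Effects had opposite signs in 34 of 50 members (68%), 28 of them below 0 in the knockout and above 0 in the AAV comparison, against 63.4% of the 15109 genes tested in both. Of the 5 immunoproteasome genes 4 had a difference above 0, and that of Psmb9 was 0.43 (SE 0.21, adjusted p 0.328 in edgeR), or 0.41 with the copies added (adjusted p 0.356).

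These differences take the direction of the AAV effect from the sample labels, to which the column names run opposite. With the AAV labels exchanged, in a fit added after seeing the data, 0 of 50 members were called in edgeR, as were 0% of all genes. At an unadjusted p below 0.05 there was 1 member below 0, Psme4 (2% of the members, 2.17% of all genes; -0.32, SE 0.12), and 0 above 0 (1.97% of all genes). The other 4 genes named above were at 0.01 (Psmc6, SE 0.09), -0.16 (Psmb6, SE 0.11), 0.04 (Psma1, SE 0.08) and -0.01 (Psmb7, SE 0.08), and Psmb9 was at -0.05 (SE 0.21). Below 0 were 10 of 14 core subunits and 13 of 17 in the regulatory particle, and signs were opposite in 16 of 50 members (32%), against 36.6% of all genes.

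The balance between immunoproteasome and constitutive subunits was followed as the ratio of each inducible catalytic subunit to the one it replaces, within a library, which does not depend on scaling between libraries. Ratios are given as the level per kb of the first in percent of the second. The 6 ratios were tested with a two-sided exact permutation test of their log2 values, adjusted by Benjamini-Hochberg over all 6. The smallest p that 4 against 4 libraries allow is 0.0286, and for 3 against 3 it is 0.10. After adjustment the smallest possible values are 0.0571 and 0.10, so that no ratio of either experiment could pass 0.05.

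By the gene rows Psmb9 to Psmb6 was higher in every knockout heart, but not with the copies added. The ratio was 3.41%, 3.01%, 3.09% and 3.61% in Atf3+/+FS6KD and 4.26%, 5.53%, 4.14% and 3.82% in Atf3-/-FS6KD. The log2 difference was 0.42, with an exact permutation p of 0.0286 (the smallest this design allows) and an adjusted p of 0.171. With the copies added the ratios were 4.22%, 4.82%, 3.76% and 4.27% and then 5.47%, 6.88%, 5.04% and 4.54%, and the groups overlapped (0.35, exact permutation p 0.0571). The overlap came through Atf3+/+FS6KD replicate 2, the library whose Psmb9 gene row held the lowest share. It stood at 3.01% by the gene row and at 4.82% with copies added, above Atf3-/-FS6KD replicate 4 at 4.54%. Psmb8 to Psmb5 averaged 3.28% ± 0.87 and 4.30% ± 1.17 (SD, n = 4 each; log2 difference 0.38, exact permutation p 0.20), and with the copies added 10.02% ± 3.37 and 12.3% ± 3.26 (0.31, exact permutation p 0.314). Psmb10 to Psmb7 averaged 28.1% ± 4.37 and 33.3% ± 4.79 (0.25, exact permutation p 0.171), so it was the pair in which the inducible subunit was best represented. Leaving out 1 heart at a time, the log2 difference by the gene rows ran from 0.31 to 0.49 for Psmb9 to Psmb6. It ran from 0.22 to 0.55 for Psmb8 to Psmb5 and from 0.17 to 0.33 for Psmb10 to Psmb7.

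Under the sample labels the AAV ratios lay the other way, and with the labels exchanged they would lie the same way as in the knockout. Psmb9 to Psmb6 was 3.42%, 2.97% and 3.53% with the label shCtrl and 2.45%, 2.99% and 2.58% with the label shAtf3 (log2 difference -0.30, exact permutation p 0.20). With the copies added it was 4.15%, 3.76% and 4.30% and then 2.87%, 3.49% and 3.16%, with no overlap (-0.36, exact permutation p 0.10). Psmb8 to Psmb5 averaged 3.68% ± 0.32 and 2.97% ± 0.35 (SD, n = 3 each; -0.31, exact permutation p 0.20), and with the copies added it was 11.2%, 9.41% and 10.5% and then 8.09%, 8.30% and 9.37%, with no overlap (-0.27, exact permutation p 0.10). Psmb10 to Psmb7 averaged 28.8% ± 1.33 and 27.2% ± 2.05 (-0.08, exact permutation p 0.40). Leaving out 1 library at a time, the log2 difference by the gene rows ran from -0.39 to -0.24 for Psmb9 to Psmb6. It ran from -0.40 to -0.25 for Psmb8 to Psmb5 and from -0.12 to -0.02 for Psmb10 to Psmb7.

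**Figure D5:**
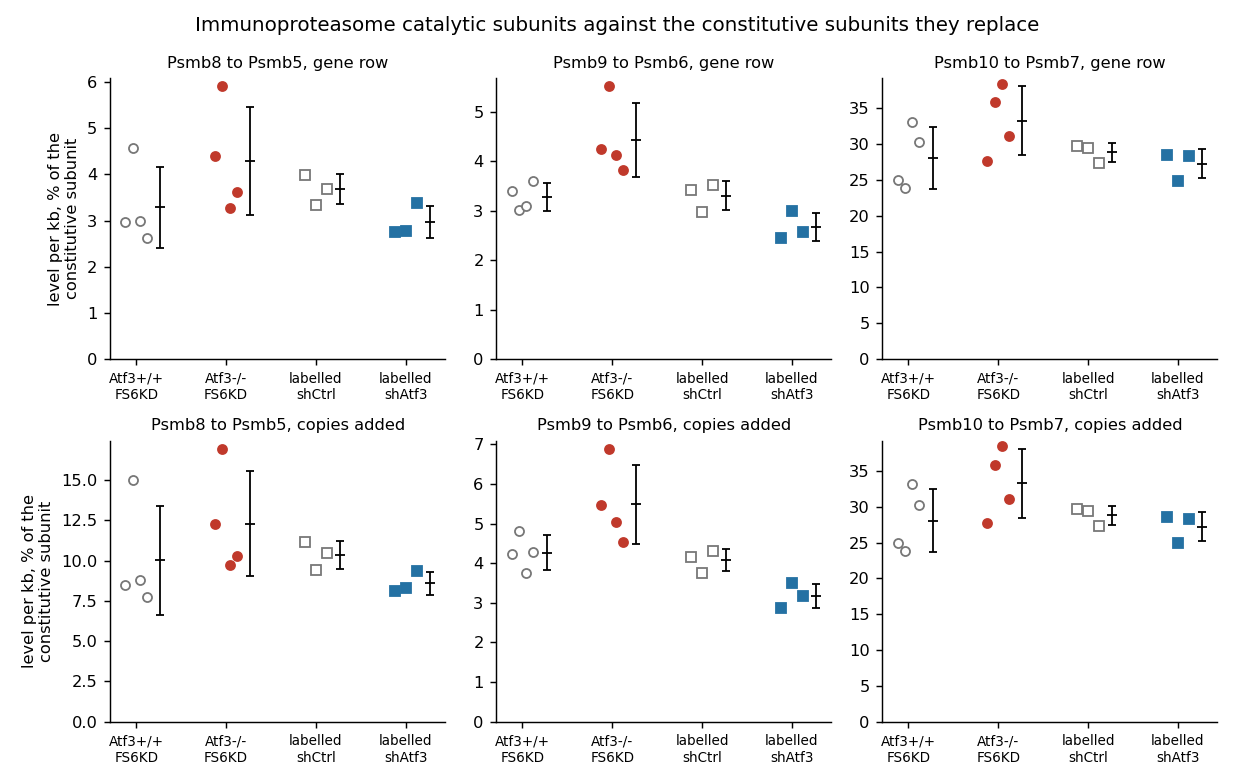
Level per kb of Psmb8, Psmb9 and Psmb10 in percent of Psmb5, Psmb6 and Psmb7, 1 point per library, from the gene rows (top) and with copies added (bottom). Black marks are means with SD (n = 4 in the knockout groups, n = 3 in the AAV groups); Psmb9 to Psmb6 runs from 3.01% to 3.61% in Atf3+/+FS6KD and from 3.82% to 5.53% in Atf3-/-FS6KD in the top row, and overlaps once copies are added.

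Genes that work with the proteasome but carry other symbols did not pass the test in either comparison. A list of 45 was drawn up from textbook knowledge, and all but Paaf1, whose symbol matched no row, were tested in both. Of the 44, 0 were called in the knockout comparison (21 above 0, 23 below) and 0 in the AAV comparison (17 above, 27 below). Subunits and maturation factors outside the symbol rule were Adrm1, Sem1 and Pomp, all below 0 in the knockout comparison. Pomp, which chaperones the core to completion, had 78.8, 79.6, 80.6 and 71.2 CPM in Atf3+/+FS6KD and 73.6, 81.8, 65.4 and 70.1 CPM in Atf3-/-FS6KD, with overlapping groups (-0.09, SE 0.08). In the AAV comparison it had -0.03 (SE 0.06).

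Of the 4 genes that control proteasome transcription, 0 were called in either comparison. Nfe2l1, the factor that raises proteasome gene expression when the proteasome is inhibited, stood at 799 ± 45.7 and 784 ± 37.3 CPM in the knockout experiment (SD, n = 4 each; -0.03, SE 0.06), and at 794 ± 28.9 and 790 ± 35.4 CPM in the AAV experiment (SD, n = 3 each; -0.01, SE 0.06). Nfe2l2, Ddi2 and Ngly1 lay between -0.13 and -0.01 in the knockout comparison and between -0.05 and 0.11 in the AAV comparison. Of the 8 deubiquitinases and bound factors, 5 were below 0 in the knockout comparison. Ecpas, which tethers both particles, had the smallest p-value of that group (-0.13, SE 0.06, adjusted p 0.487 in edgeR). Of the 8 shuttles and extraction factors 5 were below 0, and Ubqln4 (-0.14, SE 0.06) and Vcp (-0.11, SE 0.06) did not overlap between genotypes. Of all genes 2.63% were lower without overlap in that comparison. In the AAV comparison 6 of the 8 deubiquitinases and bound factors were above 0, and 6 of the 8 shuttles and extraction factors below 0. Of the 6 genes of ubiquitin and its activation 5 were below 0 in the knockout comparison and 5 above 0 in the AAV comparison. Among the latter the ubiquitin-activating enzyme Uba1 had 209.1 ± 8.13 CPM with the label shCtrl and 234.1 ± 3.70 CPM with the label shAtf3 (SD, n = 3 each), with no overlap (0.16, SE 0.06, adjusted p 0.276 in edgeR). Of all genes 8.48% were higher without overlap in the AAV comparison.

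Summed over all members with copies added, proteasome transcripts made up 4607 to 4892 CPM in Atf3+/+FS6KD and 4222 to 4649 CPM in Atf3-/-FS6KD, against 4595 to 4857 CPM under the label shCtrl and 4700 to 4979 CPM under shAtf3. The knockout ranges overlapped through replicate 2 of Atf3-/-FS6KD. The sum of Psmb8, Psmb9 and Psmb10 was 19.3% to 23.1% of that of Psmb5, Psmb6 and Psmb7 in Atf3+/+FS6KD and 23.0% to 30.3% in Atf3-/-FS6KD, which overlapped. Under the label shCtrl it was 20.9% to 22.7% and under shAtf3 18.9% to 20.5%, which did not overlap.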

How the data were processed

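RNA from 14 hearts was sequenced from stranded mRNA libraries (single-end reads in the knockout experiment). The authors deposited 1 table of estimated counts per gene and experiment, not normalised and partly fractional. The submitters' processing notes name featureCounts 2.0.0 and GRCm38.p6, and the aligner is not given in the sources used here. Counts were rounded, and all sample columns were used (0 left out).

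A gene was kept where 1 library or more of the comparison exceeded 1 CPM. Groups followed the labels. Each comparison was fitted to its own libraries, and the interaction to all 14, with edgeR 4.0.16 (TMM, quasi-likelihood, Benjamini-Hochberg adjustment, threshold 0.05) in R 4.3.3. Alternatives were DESeq2 1.42.0, limma 3.58.1, other scalings and filters, added copies, a replicate block, depth batches and leaving out each library. Log2 CPM used a prior count of 2. Ratios were tested with scipy 1.17.1. The fits were tested on simulated data with known fold changes. Exon unions of basic protein-coding transcripts came from GENCODE (vM21) and promoters from RefSeq, both on GRCm38.

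The members, gene lists and tests were chosen with earlier results of these data known. The genes named were the catalytic and immunoproteasome subunits, Pomp, Nfe2l1, up to 5 members per direction with the smallest p-values in each comparison, 5 in the interaction, and the highest and lowest level per kb of each class; others were named after their values were seen. The labels do not give litters or batches, so p-values measure the spread between these hearts. At 30085432 counts or more per library, counting error was small for all but the members with low counts. Among these was Psmb9, whose gene row held 89 to 160 counts in the AAV libraries.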

Additional observations from a re-analysis of the deposited data

Results flagged for a closer look

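In the knockout groups of 4 hearts, 1 heart lay far from the other 3 in 10 of 100 sets of values (50 members in each of 2 groups), where chance alone flags about 1 in 20. In Atf3-/-FS6KD replicate 2 was high for Psmb4 (121 CPM against 113 to 114), Psmd11 (120.1 against 106 to 108), Psmd12 (117 against 104 to 106) and Psmb9 (5.46 against 3.71 to 3.81). Replicate 3 of that genotype was low for Psmd1 (144 CPM against 157 to 159) and Psma8 (0.57 against 1.19 to 1.23). In Atf3+/+FS6KD replicate 4 was low for Psma4 (111 CPM against 126 to 128) and Psmg2 (25.7 against 27.7 to 27.9), replicate 2 was low for Psmc3ip (2.31 against 2.77 to 2.79), and replicate 3 was high for Psmb1 (159 against 138 to 141).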

How the results depend on the processing

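No setting called a member in edgeR or limma, and DESeq2 called 1, Psme4, in the knockout comparison (log2 -0.37, adjusted p 0.0105) and 1, again Psme4, in the interaction (-0.42, adjusted p 0.0343). DESeq2 called 208 genes in all for the knockout, 308 for the AAV comparison and 669 for the interaction, against 0, 82 and 26 in edgeR; the cause was not tested. Without TMM scaling (library size alone) the knockout medians were 0.0027 for all members, -0.012 for the core and -0.025 for the regulatory particle, and 1 member was lower without overlap (0.943% of all genes). All genes moved together there, and these medians minus that of all genes were -0.059, -0.074 and -0.087, against -0.059, -0.074 and -0.088 with TMM. The AAV median was then -0.019, with 0 members higher (4.64% of all genes) and 2 lower (14.3%) without overlap. With copies added 5 were higher (8.52%), Psmd8 among them, and 2 lower (10.1%). Leaving out each library in turn, the knockout comparison had 6 to 19 members lower (3.59% to 5.32% of all genes) and 0 to 1 higher (4.21% to 5.49%) without overlap, the 19 without Atf3-/-FS6KD replicate 2, and the AAV comparison 5 to 10 higher (12.9% to 15% of all genes) and 1 to 4 lower (13.6% to 16.9%). Counts of members without overlap under other settings were added after seeing the data. The immunoproteasome median of the knockout comparison was 0.36 within replicates 1 and 2 and -0.026 within replicates 3 and 4.

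Small values changed sign. With library size alone, the knockout value was 0.0065 for Psme1, 0.050 for Psme2 and 0.034 for Nfe2l1, the AAV value of Psmb10 was -0.029, and the interaction was 0.040 for Pomp and 0.082 for Nfe2l1. With the AAV labels exchanged, the interaction was -0.051 for Psmb9, 0.020 for Psme1, -0.056 for Psme2, 0.0055 for Psmc6 and 0.039 for Psma1. Within replicates 3 and 4 of the knockout comparison Psmb9 was -0.027, Psmb10 -0.056 and Psme2 0.015. Leaving out each library in turn gave knockout values of -0.12 to 0.028 for Psme1, -0.094 to 0.061 for Psme2 and -0.062 to 0.0056 for Nfe2l1. It gave AAV values of -0.051 to 0.090 for Psmb10, -0.10 to 0.0055 for Psme2 and -0.046 to 0.024 for Nfe2l1, and interactions of -0.049 to 0.10 for Psme2 and -0.055 to 0.013 for Nfe2l1.

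Whether replicate numbers pair the hearts could not be told. Deviations of same-numbered hearts correlated at 0.0064 to 0.14 in the knockout and -0.00037 to 0.15 in the AAV experiment. Those of hearts with unlike numbers correlated at -0.24 to 0.19 and -0.18 to 0.089. Not every heart correlated best with its own number. With a replicate block 0 members were called in both comparisons, the knockout median was -0.06, 39 of 50 members were lower, and genes called in the AAV comparison went from 82 to 20.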
